A study of Mus musculus with 4 samples.

Results

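Follistatin, the activin subunits and a set of SMAD target genes were examined in mouse liver as 10 genes, Fst, Inhba, Inhbb, Inhbc, Inhbe, Smad6, Smad7, Id1, Id2 and Id3. The genes were chosen by name after the results of the comparison between diets in this series were known, so the choice rested on measured values. Their symbols were matched to the 7000 genes listed in the authors' deposited table, and 8 of the 10 were found. Inhba and Inhbb were not listed, under their symbols or under synonyms. Each diet group had 2 FVB/N males without any engineered allele. A base diet low in Se was eaten for 6 weeks, starting when the pups were weaned, either with no Se added (0 Se) or with sodium selenite providing 0.1 ppm Se (0.1 Se). Total RNA was depleted of ribosomal RNA and sequenced as 4 stranded libraries. The values used here are 1 mean level per gene over all 4 libraries, the authors' mean, so both diets are contained in each value. Levels in a single mouse or a single diet, and differences between the diets, were not analysed here.

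Activins are dimers of inhibin beta subunits and belong to the TGF-beta family. They bind type II and type I receptor kinases, which phosphorylate SMAD2 and SMAD3, whereas bone morphogenetic proteins (BMPs) signal through SMAD1, SMAD5 and SMAD9. Follistatin is a secreted protein that binds activins and keeps them from their receptors. SMAD6 and SMAD7 are inhibitory SMADs, induced by the pathway and acting back on its receptors. The Id proteins are helix-loop-helix proteins without a DNA-binding region, and their genes are widely used as readouts of BMP signalling. In liver the beta C and beta E subunits are known as products of hepatocytes.

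The activin subunits and the Id proteins are each encoded by genes of similar sequence, so the most similar aligned coding stretches are shown first. They bear on the levels because only reads that aligned to a single mRNA were counted. Each stretch below is the most similar run of 60 coding bases, taken as whole codons and lying within 1 exon of every gene. The runs are ungapped in the protein alignments, and untranslated parts of the mRNAs were not searched for them. Capitals mark the bases identical in all the genes shown. Sequences are read 5′ to 3′ on the coding strand from the GENCODE vM1 transcripts on NCBIM37 (mm9).
Inhbc: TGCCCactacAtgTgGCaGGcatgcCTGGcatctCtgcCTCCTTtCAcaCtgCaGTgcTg
Inhbe: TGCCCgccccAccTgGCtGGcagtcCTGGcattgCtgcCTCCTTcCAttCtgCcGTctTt
Inhba: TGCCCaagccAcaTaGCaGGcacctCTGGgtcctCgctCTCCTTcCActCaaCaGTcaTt
Inhbb: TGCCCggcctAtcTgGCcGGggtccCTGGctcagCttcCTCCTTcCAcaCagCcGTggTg
Of the 60 bases, 29 were identical in the 4 activin subunit genes. The stretch lies in exon 2 of Inhbc (chr10:126794305-126794364, minus strand), exon 2 of Inhbe (chr10:126787469-126787528, minus strand), exon 5 of Inhba (chr13:16118741-16118800, plus strand) and exon 2 of Inhbb (chr1:121314058-121314117, minus strand). Inhbc and Inhbe differed at 17 of its bases.

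The Id genes were more alike in their best stretch, which encodes codons 83 to 102 of Id1, 60 to 79 of Id2 and 65 to 84 of Id3.
Id1: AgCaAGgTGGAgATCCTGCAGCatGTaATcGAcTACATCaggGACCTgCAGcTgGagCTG
Id2: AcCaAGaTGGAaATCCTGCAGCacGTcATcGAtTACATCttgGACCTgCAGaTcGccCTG
Id3: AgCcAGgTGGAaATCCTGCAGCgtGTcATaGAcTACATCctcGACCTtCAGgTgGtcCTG
Here 43 of the 60 bases were identical in all 3 genes, and Id1 differed from Id2 at 12 bases, Id1 from Id3 at 12 and Id2 from Id3 at 13. The stretch is in exon 1 of each gene, at chr2:152562323-152562382 (plus strand) for Id1, chr12:25780639-25780698 (minus strand) for Id2 and chr4:135699986-135700045 (plus strand) for Id3. When the mRNA of each member was cut into all possible reads of 50 bases, none matched the mRNA of another gene of its own family with up to 2 mismatches. Among 22611 coding mRNAs, 1 per gene, 9 of the 10 members shared no such read with any other gene. The exception was Inhbe, in which 20 of 2086 read positions were shared, leaving 99.0% unique. The shared reads cover bases 86 to 154 of its mRNA, upstream of the coding sequence that starts at base 228, around an uninterrupted run of 16 CTG triplets. In this search, reads of the members could therefore be assigned to 1 gene over nearly the whole mRNA. The authors' own RefSeq mRNAs and non-coding transcripts were not searched. For Id3 the searched transcript has 1278 bases, against 953 listed by the authors.

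Levels are given as mean CPM (read counts scaled to a library total of 1000000) and, for comparisons between genes, as mean CPM per kilobase of mRNA, with the mRNA length listed by the authors. The 8 listed genes spanned a 96.9-fold range per kilobase, from Smad6 to Id2. Their median was 13.9 CPM per kilobase, against 6.19 for all 7000 listed genes, and 5 of the 8 lay above that median. Without division by length the medians were closer, 22.35 CPM against 18.68, and 4 of the 8 lay above. These are places within the list only, since the mean CPM of the listed genes summed to 64.76% of the library total of 1000000. No member has a replicate error here, so none of the differences in level between genes was tested, and it is not known which neighbours in the order differ beyond the spread between mice.

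**Figure D1:**
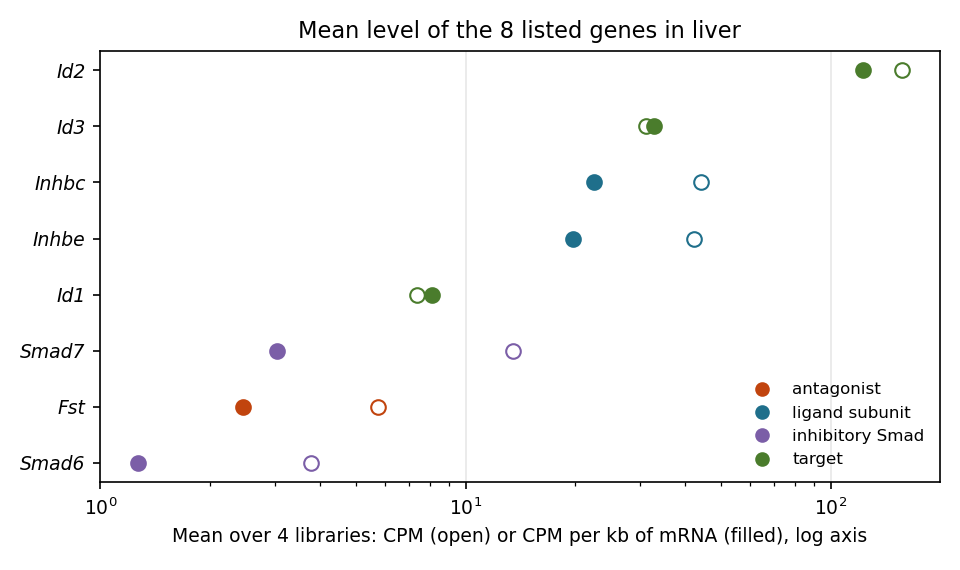
Mean level of each of the 8 listed genes over the 4 liver libraries, on a log axis, as CPM (open circles) and as CPM per kilobase of mRNA (filled circles), coloured by role. Id2 is highest on both scales and Smad6 lowest, and Inhbc and Inhbe lie close together. There are no error bars because each value is 1 mean over all libraries.

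Of the ligand subunits, Inhbc (inhibin beta C, chr10:126793384-126807600, minus strand, 2 exons) had a mean of 44.2 CPM, or 22.5 CPM per kilobase over 1968 bases. Inhbe (inhibin beta E, chr10:126786458-126788828, minus strand, 2 exons) had a mean of 42.1 CPM, or 19.7 CPM per kilobase over 2135 bases. The pair was thus close in level, with Inhbc 1.14 times Inhbe per kilobase. The genes are also neighbours on the chromosome, in the same orientation and 4555 bases apart. Inhbc exceeded 79.0% of the listed genes per kilobase and Inhbe 76.6%.

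The encoded beta C and beta E proteins shared 41.0% of aligned residues over their whole length and 72.9% of the 96 residues aligned within the last 100 of beta C, the end of the precursor that holds the mature subunit. This was the highest identity at that end among the 6 pairs of activin subunits, followed by beta A with beta B at 63.6% of the 99 residues aligned within the last 100 of beta A. The 4 pairs between these groups ranged from 49.0% to 54.0%. The longest run of bases common to the Inhbc and Inhbe mRNAs was 14, and the longest for any pair of the family was 23, between Inhba and Inhbc. All of these runs are shorter than a read.

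Inhba (inhibin beta A, chr13:16103684-16119044, plus strand, 5 exons) and Inhbb (inhibin beta B, chr1:121312042-121318825, minus strand, 2 exons) encode the subunits of activins A, B and AB. They have no level here. The authors left out genes that did not exceed 1 CPM in at least 3 libraries, and whether Inhba and Inhbb fell under this filter is not known. Being unlisted does not by itself show a low level, because albumin (Alb) and transthyretin (Ttr), hallmark transcripts of hepatocytes, are also unlisted.

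Fst (follistatin, chr13:115242470-115249159, minus strand, 6 exons) had a mean of 5.74 CPM over an mRNA of 2337 bases, which is 2.46 CPM per kilobase. It exceeded 28.2% of the listed genes per kilobase, or 12.03% of the listed genes with a mean of at least 5 CPM. The level of the antagonist was thus below that of both listed ligand subunits, with Inhbc 9.15 times and Inhbe 8.03 times Fst per kilobase. These are ratios of mRNA from means over both diets, and the ratio or the order of Fst against its neighbours within either diet may differ from them.

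Both inhibitory SMADs were in the lower part of the listed genes. Smad7 had a mean of 13.5 CPM, or 3.04 CPM per kilobase, and exceeded 32.4% of the listed genes per kilobase. It exceeded 16.4% per kilobase of those with a mean of at least 5 CPM, and 41.2% of all listed genes by CPM without division by length. Smad6 (chr9:63800953-63869866, minus strand, 4 exons) had a mean of 3.77 CPM, or 1.27 CPM per kilobase, and exceeded 16.0%. Smad7 was 2.40 times Smad6 per kilobase and 3.58 times by CPM, since its listed mRNA of 4441 bases is longer than that of Smad6 with 2971 bases. The proteins were 56.0% identical over 407 aligned residues, and no run of identical bases in their mRNAs exceeded 12.

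The 3 Id genes covered a wide range. Id2 (chr12:25778666-25780957, minus strand, 3 exons) had a mean of 156 CPM, or 123 CPM per kilobase, and exceeded 94.2% of the listed genes. It alone made up 51.4% of the summed mean CPM of the 8 genes, 304 CPM. Id3 (chr4:135699412-135701670, plus strand, 3 exons) had a mean of 31.2 CPM, or 32.7 CPM per kilobase over the listed 953 bases, and exceeded 84.1%. By CPM without division by length Id3 exceeded 64.1%. Id1 (chr2:152561987-152563146, plus strand, 2 exons) had a mean of 7.37 CPM, or 8.09 CPM per kilobase, and exceeded 57.2%. Its place relative to the median of the listed genes depends on the scale, since Id1 exceeded 27.6% of them by CPM without division by length, and 46.2% per kilobase of those with a mean of at least 5 CPM. Per kilobase, Id2 was 3.75 times Id3 and 15.2 times Id1, and Id3 was 4.05 times Id1. The Id3 level depends most on the length taken for its mRNA. The annotated transcript has 1278 bases, which gives 24.4 CPM per kilobase and still places Id3 between Id2 and Inhbc. The Id proteins shared 47.1% (Id1 with Id3), 47.4% (Id2 with Id3) and 50.4% (Id1 with Id2) of their aligned residues.

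**Figure D2:**
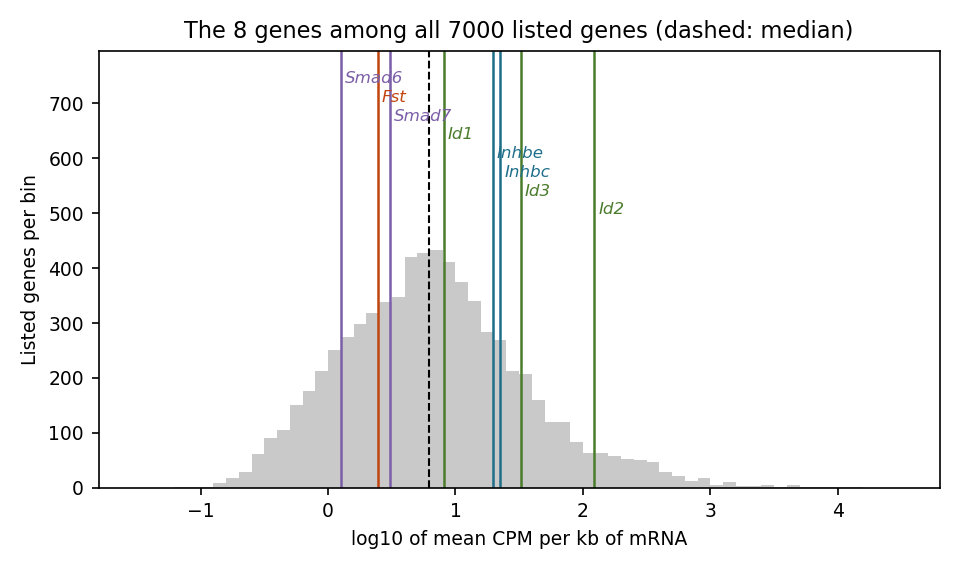
Histogram of the log10 of mean CPM per kilobase of mRNA for all 7000 listed genes, with a coloured line at each member and a dashed line at the median of 6.19 CPM per kilobase. Smad6, Fst and Smad7 lie to the left of the median and Id1, Inhbe, Inhbc, Id3 and Id2 to the right.

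The other genes of the activin, BMP and TGF-beta pathways were taken as a list of 67 genes by role, of which 37 were listed in the table. Their median was 4.12 CPM per kilobase, and 9 of the 37 lay above the median of all listed genes. Of the other ligands, 4 of 16 were listed, all below Inhbc and Inhbe per kilobase, from 0.815 for Tgfb1 to 4.50 CPM per kilobase for Bmp2, a BMP ligand. Of the 12 antagonists and binding proteins, 7 were listed, from Ltbp3, a matrix protein that binds latent TGF-beta, at 0.217 to Dcn (decorin), a matrix proteoglycan, at 98.3 CPM per kilobase. Fst lay within this range.

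Among 15 receptors and co-receptors, 10 were listed, with a median of 6.28 CPM per kilobase. The highest was Hfe2 (hemojuvelin), the BMP co-receptor that controls hepcidin, at 12.6, and the lowest was Acvrl1, an endothelial type I receptor, at 1.14 CPM per kilobase. Acvr2a, a type II activin receptor, was at 8.86 and Acvr1b, a type I activin receptor, at 3.17 CPM per kilobase. These 2 receptors were singled out after their values were seen. Of 14 other SMADs and regulators, 10 were listed, from Smurf1, a ubiquitin ligase of the pathway, at 3.02 to Ppm1a, a phosphatase, at 37.6 CPM per kilobase. Smad6 was below all 10, whereas Smad7 was above Smurf1 only. Of 10 further SMAD target genes, 6 were listed, from Col1a1 at 1.03 to Tsc22d1 at 22.4 CPM per kilobase. Hamp and Hamp2, the hepcidin genes, were not among them, which gives them no level and does not show a low one. Against all 37 pathway genes, Id2 was higher than every one, Inhbc was exceeded by 2 and Inhbe by 3, while 27 exceeded Fst and 30 exceeded Smad6.

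**Figure D3:**
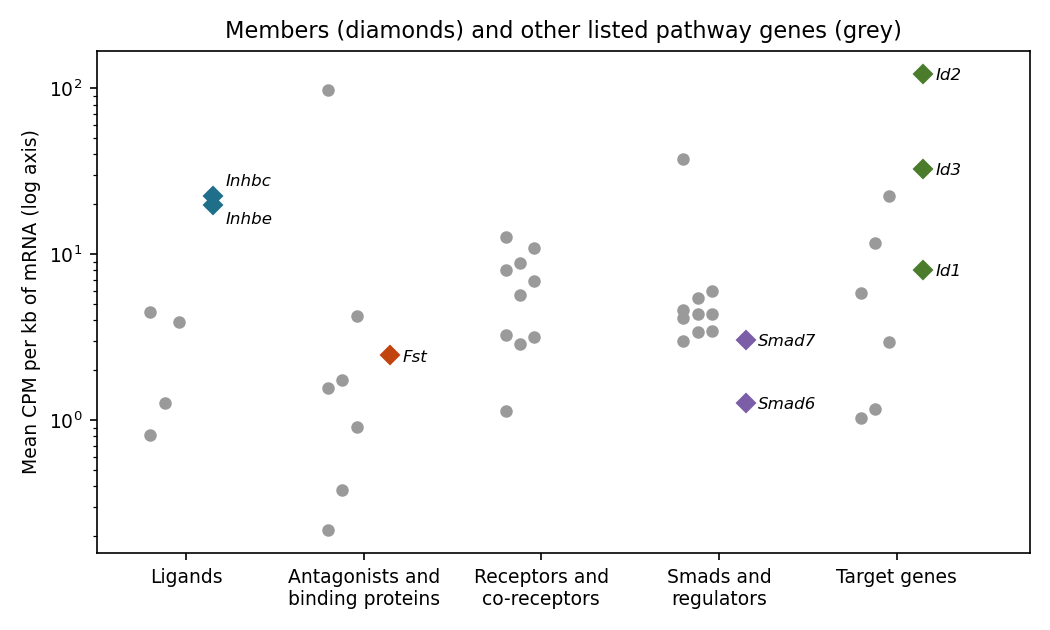
Mean CPM per kilobase of mRNA, on a log axis, for the 8 members (labelled diamonds) and the 37 other listed pathway genes (grey points), by role. Inhbc and Inhbe stand above the other listed ligands, Fst lies within the range of the antagonists, and Smad6 lies below all of the other SMADs and regulators.

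The tissue was checked against marker lists. Of 6 hepatocyte markers 4 were listed, with Apoa1 (apolipoprotein A-I) highest at 7619 CPM per kilobase and a summed mean of 18013 CPM. Stellate cell markers summed to 364 CPM (6 of 6 listed), endothelial markers to 253 CPM (4 of 6) and Kupffer cell markers to 428 CPM (5 of 6), with Dcn, Stab2 and Clec4f the highest of each. Only Spp1 of 5 cholangiocyte markers and Ptprc of 5 lymphocyte markers were listed, and none of 4 skeletal muscle markers. Unlisted markers, Alb and Ttr among them, have no level here and are not thereby shown to be low. The sums cover unlike parts of their lists and cannot be compared between cell types. The libraries therefore hold RNA of several liver cell types. In such bulk samples the number of cells of a type and the RNA per cell cannot be told apart, and which cells the member transcripts came from was not tested.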

How the data were processed

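Liver RNA of 4 mice was sequenced by the authors for 50 cycles from single ends after removal of ribosomal RNA. Per the labels and the study's methods, the authors aligned reads with Bowtie to RefSeq mRNAs of mm9, keeping the longest isoform of each gene and unique alignments with up to 2 mismatches, and ran edgeR on those mRNAs that exceeded 1 CPM in 3 or more libraries. The deposited table gives 1 mean level per gene as log2 CPM over all libraries, made by the authors with edgeR, and the mRNA length in bases. The prior count, the normalization and the versions of these tools were not stated. The addition of a prior count would raise low levels most. The table's other columns hold the authors' log2 fold changes, p-values and false discovery rates for the diets, and were not used here. It has 0 columns for single mice, so library totals, depth, intervals and errors are unknown.

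The planned count test between diets was not run, because the table holds no counts. The log2 values were turned into CPM and divided by mRNA length in kilobases. A percentile is the share of listed genes with a lower value. Which genes are listed depends on the authors' selection, so a percentile is relative to that list only. Gene models, coordinates and coding sequences came from GENCODE vM1 on NCBIM37, the assembly of mm9, using the transcript nearest in length to the listed mRNA (the longest for unlisted genes). Reads of 50 bases were searched against 1 coding transcript per gene with bwa 0.7.19, and the search was tested on simulated data. Proteins were translated and aligned with biopython 1.88 (BLOSUM62). Python 3.11.15 and matplotlib 3.10.9 were used. Promoters are RefSeq sequences on GRCm38.p6. Members and lists were chosen with earlier results of these data known. All members are named. Of each pathway role the highest and lowest listed genes are named, and of each marker list the highest.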

Additional observations from a re-analysis of the deposited data

How the results depend on the processing

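The median of the 8 listed genes, 13.9 CPM per kilobase, was 13.8 with the annotated transcript nearest in length, and, in alternatives chosen after seeing the data, 13.0 with the longest annotated transcript and 14.4 with the read positions that no other gene shares. The order of the 8 genes was the same under these 3 lengths. Without division by length 5 of the 8 changed place, because Inhbc and Inhbe moved above Id3 and Smad7 above Id1. The number of genes above the median of listed genes, 5 per kilobase, was 4 without division by length and 4 when restricted to genes of at least 5 CPM, a level that 7 of the 8 reach. Id1 was the gene that fell below the median in both cases. Matching by synonym left the number of listed genes at 8. Leaving out each mouse and other count models were not run, since values of individual mice were not analysed here. No filter other than the limit of 5 CPM was tried. No paired analysis was possible because the columns carry no replicate. Depth is unknown, so the precision of the lowest levels, those of Smad6 and Fst, cannot be given.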

Other observations

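Promoters of 7 of the 10 genes, in windows of 300 bases that end 50 bases after the start site, were found in the RefSeq set on GRCm38.p6, without Fst, Smad7 and Id1. They were searched for 2 sets of letters known from SMAD-bound elements, GGCGCC and GTCTAGAC, each of which reads the same on both strands. GGCGCC was present in 11.9% of 32851 promoters and in 1 of the 7, that of Id2. GTCTAGAC was present in 0.213% of promoters and in 1 of the 7, that of Smad6. The percentages count single promoters, whereas a member gene was counted if any of its promoters held the letters. The matches are shown with the searched letters in capitals.
Id2, chr12:25096306-25096335, minus strand: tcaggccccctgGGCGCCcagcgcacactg
Smad6, chr9:64022044-64022075, minus strand: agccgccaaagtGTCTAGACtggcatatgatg
Counted from the start site, the Id2 match begins at position -231 and the Smad6 match at position -4. A match of letters is a description and does not show binding. Id2 has the highest and Smad6 the lowest level of the 8 listed genes, and the relation of these letters to level was not tested.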
